A study of Mus musculus with 8 samples.

Results

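Genes of the ciliary axoneme were followed in whole-lung RNA-seq of CC-LR mice. The members were the protein-coding genes of the deposited count table whose symbols begin with Dnah, Dnai, Dnaic, Dnal, Cfap, Rsph, Tekt or Drc followed by a digit, and they numbered 66 of the 54532 genes listed. At least 10 counts in at least 4 of the 8 libraries were present for 64 of them, and the same number passed the filter on low counts and entered the test. The other members were Cfap97d1, with 0 to 3 counts per library, and Rsph6a, a radial spoke gene of sperm, with 1 count in Control 1 and 0 in the remaining libraries. The rule uses names only, and it was set with earlier results of these data known.

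Motile cilia of the airway beat because dynein motors slide neighbouring microtubules of the axoneme past each other. Outer dynein arms set the beat frequency and inner arms shape the bend, radial spokes carry signals between the central apparatus and the arms, and the nexin-dynein regulatory complex links neighbouring microtubules and limits sliding. Tektins run inside the microtubule wall, and CFAP, short for cilia and flagella associated protein, is a naming class that spans all of these structures. In the lung these genes are known as products of multiciliated airway cells, and loss of several of them in people causes primary ciliary dyskinesia. Sperm tails have axonemes of the same plan but use some paralogs of their own, such as Dnah8, Dnah17, Tekt5 and Rsph6a.

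All 8 libraries came from lungs of CC-LR mice at 14 weeks of age, that is, mice of C57BL/6 background with Cre expressed from the club cell secretory protein (CCSP) locus and a Cre-activated K-ras G12D allele. The Cre driver is active in the lung epithelium, where tumors form spontaneously, and the controls carried both alleles too. Of the 2 groups, Control (4 libraries) had no TTI-101, and the TTI-101 group (4 libraries) received this small-molecule STAT3 inhibitor for 4 weeks from 10 weeks of age, by a route that the study does not name for these samples. The comparison asked how STAT3 inhibition altered transcripts of the tumor-bearing lung. Each library was read as a separate mouse, because the number of CC-LR mice stated for the experiment equals the number of libraries per group, and p-values measure the spread between these libraries.

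The Control libraries held 16446481 to 26873509 counts each, and the TTI-101 libraries 16075855 to 25920509. The labelled tissue was checked against Sftpc, the surfactant gene of alveolar type 2 cells, at 16673 to 40617 CPM (read counts on a common library scale, after TMM), and Scgb1a1, the club cell secretory protein, at 10013 to 31148 CPM. Control 4 stood apart. Mitochondrial genes took 5.56% of its counts against 2.01% to 2.85% in the other libraries, and its 5 endothelial markers summed to 837 CPM against 1885 to 3345 CPM elsewhere. Values without Control 4 are given below for the members at an unadjusted p under 0.05, for the marker and pathway lists and for some other members.

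The axonemal genes were mostly lower in TTI-101 than in Control, with large spread in both groups. Of the 64 tested members, 60 had a log2 fold change below 0 against 49.4% of all 17138 genes tested, and the median was -0.65 against 0.003 over all genes. Between 58 and 61 members lay below 0 under every other normalization, filter, test or omitted library tried. In whole-lung RNA, fewer ciliated cells and less RNA per ciliated cell cannot be told apart.

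No member passed the test after adjustment over all genes. With Benjamini-Hochberg adjustment and a threshold of 0.05, the edgeR quasi-likelihood fit called 0 of the 64 members and 0 of all genes (0%), limma-voom called 0 genes, and DESeq2's Wald test called 4 genes, none of them a member. The lowest adjusted p of a member was 0.657 in edgeR. At an unadjusted p under 0.05 in edgeR, 16 of 64 members (25%) were lower, where 3.58% of all genes tested were, and 0 members were higher, where 3.02% of all genes were. Groups separated without overlap in 0 members, whether below (1.43% of all genes) or above (1.53%). The 16 members were 9 dynein heavy chains, 5 CFAP genes, Rsph4a and Dnal1, and Control 4 was the highest Control library in all 16.

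This count rested largely on some single libraries. It was 2 without Control 4, where 1.2% of all genes were lower at an unadjusted p under 0.05 in edgeR. It was 3 without TTI-101 1 (1.8% of all genes), 2 without TTI-101 3 (1.3%) and 4 without TTI-101 4 (2.1%). It was 40 without Control 1 (6.6%) and 49 without TTI-101 2 (8.1%). The omissions that moved it least were those of Control 2, with 13 (3.57%), and Control 3, with 14 (2.88%). The share of all genes was 3.58% with every library kept, so it fell and rose with the same omissions. The median log2 fold change of the members moved less, from -0.41 without Control 4 to -1.02 without TTI-101 2. Without Control 4, 2 of the 16 members kept an unadjusted p under 0.05 in edgeR. Those were Cfap44 and Rsph4a, the only members under an unadjusted p of 0.05 in edgeR in all 8 of these reduced comparisons.

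One order of libraries ran through nearly all members. Their mean log2 CPM was 3.73, 4.43, 4.49 and 4.95 in Control 1 to 4 and 3.55, 4.50, 3.54 and 3.58 in TTI-101 1 to 4. Control 1 therefore lay close to the lower TTI-101 libraries, and TTI-101 2 lay among the Control libraries. The group means were 4.40 ± 0.50 in Control and 3.79 ± 0.47 in TTI-101 (SD, n = 4 each), a difference of -0.61 on the log2 scale. Summed over the members, the level was 1149, 1961, 2058 and 3108 CPM in Control and 1038, 2032, 1026 and 1077 CPM in TTI-101. By gene, Control 4 was the highest Control library in 50 of 64 members (32.8% of all genes), Control 1 the lowest Control library in 57 (26.1%), and TTI-101 2 the highest TTI-101 library in 59 (31.5%). In 29 members (45.3%, against 8.51% of all genes), 3 of the 4 TTI-101 libraries lay below every Control library, and in no member did all 4.

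**Figure D1:**
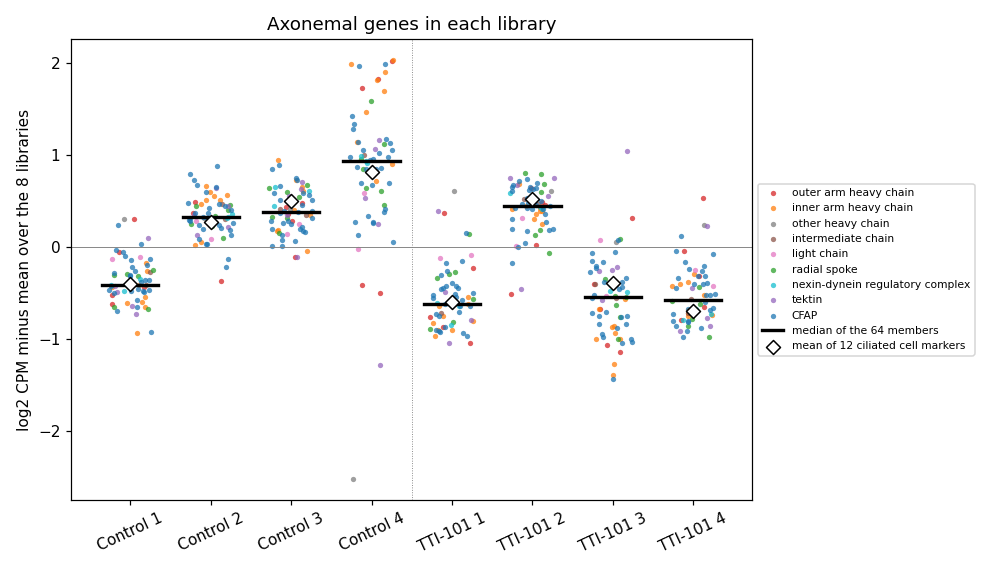
Each point is 1 of the 64 tested members, coloured by role, as its log2 CPM in a library minus its mean over the 8 libraries, with a bar at the members' median and a diamond at the mean of 12 ciliated cell markers treated the same way. Control 4 is the highest Control library for 50 members, TTI-101 2 the highest TTI-101 library for 59, and the diamonds take the same course as the bars.

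Most markers of ciliated cells outside the member rule took the same course. Foxj1, the transcription factor that sets the motile cilia program, was at 102, 179, 196 and 303 CPM in Control 1 to 4 and 84.3, 270.4, 137 and 74.0 CPM in TTI-101 1 to 4, and the groups overlapped. All 12 ciliated cell markers (Foxj1, Tppp3, Sntn, Ccdc153, Fam183b, Tmem212, Pifo, Sec14l3, Cdhr3, Cdhr4, Mlf1 and Dynlrb2) were detected, with a summed level of 1565 to 2954 CPM in Control and 1580 to 2064 CPM in TTI-101. Sec14l3 made up 33.1% to 63.9% of these sums and went another way, since TTI-101 2 was its lowest library, at 924, 1093, 997 and 1519.6 CPM in Control and 975, 683, 918 and 1097 CPM in TTI-101. The other 11 markers summed to 641 to 1434 CPM in Control and 605 to 1381 CPM in TTI-101. Each of the 12 had a log2 fold change below 0, with a median of -0.61, and only Sntn was under an unadjusted p of 0.05 in edgeR. Without Control 4, 11 of the 12 were below 0 with a median of -0.36, and 0 were under that p. Their mean log2 CPM was 6.17 ± 0.52 in Control and 5.59 ± 0.56 in TTI-101 (SD, n = 4 each). Subtracting it from the members' mean left -1.78 ± 0.08 in Control and -1.80 ± 0.16 in TTI-101, a difference of -0.02.

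Markers of other lung cells differed between the groups as well, none at an adjusted p under 0.05 in edgeR. All 5 tested club cell markers had a log2 fold change below 0, and 2 of them were lower at an unadjusted p under 0.05 in edgeR, with a median of -0.68 and a sixth marker, Upk3a, too low to test. Without Control 4, 1 of the 5 was lower at that p, with a median of -0.55. The 6 alveolar type 2 markers had a median of -0.40 (-0.20 without Control 4) with 0 under that p, and summed to 41092 to 73235 CPM in Control, where Control 4 was highest, and 32073 to 58266 CPM in TTI-101, where TTI-101 2 was highest. All 5 B cell markers (median log2 fold change 1.28, 71.6 to 234.5 CPM summed in Control and 217 to 441 CPM in TTI-101) and 4 of 5 red cell markers (median 2.50, 58.0 to 264 CPM and 205 to 1586 CPM) were higher at an unadjusted p under 0.05 in edgeR. Without Control 4, 5 of 5 in each list were higher at that p, with medians of 1.05 and 3.11. Markers of other kinds lay above 0 with none under that p, namely 5 of 5 endothelial (median 0.57, and 0.40 without Control 4), 4 of 5 alveolar type 1 (0.39 and 0.15) and 5 of 5 alveolar macrophage markers (0.29 and 0.14). The part of these cells in the axonemal values was not tested.

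Outer arm heavy chains divided into airway and sperm-type genes. Dnah5 (ENSMUSG00000022262, GRCm38 chromosome 15, 28203752 to 28472052, plus strand), the outer arm motor most often lost in primary ciliary dyskinesia, was at 38.4, 72.7, 66.4 and 184 CPM in Control 1 to 4 and 28.3, 71.3, 23.5 and 33.0 CPM in TTI-101 1 to 4. TTI-101 1, 3 and 4 lay below every Control library, while TTI-101 2 sat beside Control 2. Its log2 fold change was -1.21 ± 0.48 SE (edgeR, unadjusted p = 0.0294) and -0.60 without Control 4 (edgeR, unadjusted p = 0.131). Dnah9, the motor of the distal outer arm, was at 23.2, 43.2, 46.4 and 110.3 CPM in Control and 16.2, 46.9, 20.8 and 19.3 CPM in TTI-101, with TTI-101 2 just above Control 3 and a log2 fold change of -1.11 (-0.54 without Control 4, edgeR, unadjusted p = 0.172). Dnah11, the motor of the proximal outer arm, was at 11.7, 22.4, 24.2 and 73.0 CPM in Control and 10.5, 18.3, 8.51 and 14.4 CPM in TTI-101, a log2 fold change of -1.35 (-0.59 without Control 4, edgeR, unadjusted p = 0.0881). Control 4 held more Dnah11 than the other Control libraries together.

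Dnah8 and Dnah17, the heavy chains of the sperm outer arm, showed another order. Dnah8 was at 8.0, 4.96, 5.99 and 4.54 CPM in Control and 8.40, 4.50, 8.06 and 9.37 CPM in TTI-101, so that Control 4 and TTI-101 2, the highest libraries of their groups for most members, were here the lowest. The log2 fold change was 0.36 ± 0.28 SE (edgeR, unadjusted p = 0.226), and the groups overlapped. Dnah17 was at 6.60, 8.07, 8.32 and 5.12 CPM in Control and 5.84, 10.7, 5.17 and 6.63 CPM in TTI-101, a log2 fold change of 0.01. Control 4 was again the lowest Control library, while TTI-101 2 was the highest of all. Male germ cell markers (Prm1, Prm2, Tnp1, Tnp2, Acrv1 and Odf1) summed to at most 0.512 CPM in Control and 0.167 CPM in TTI-101, and Tnp1 and Acrv1 were at 0 counts in every library. Dnah17 overlaps Pgs1 on the other strand, and Pgs1 averaged 129 CPM, so some of its counts could belong to Pgs1 if the counting ignored strand.

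All 9 inner arm heavy chains had a log2 fold change below 0, from -1.40 for Dnah3 to -0.64 for Dnah2 with a median of -1.02. Of these, 6 of 9 were lower at an unadjusted p under 0.05 in edgeR, where 3.58% of all genes tested were. Without Control 4 none of them was under that p. Dnah6 had the highest level per length of any heavy chain, 5.78 CPM per kb averaged over both groups, against 4.13 for Dnah5 and 0.0883 for Dnah14, the lowest. It was at 41.5, 92.8, 83.3 and 204 CPM in Control and 37.3, 84.0, 31.5 and 38.3 CPM in TTI-101, a log2 fold change of -1.14 ± 0.46 SE (edgeR, unadjusted p = 0.0302) that became -0.60 without Control 4 (edgeR, unadjusted p = 0.127). Dnah1 had the smallest p of the inner arm chains, at 14.1, 32.5, 34.0 and 45.3 CPM in Control and 11.6, 24.4, 10.2 and 15.8 CPM in TTI-101, a log2 fold change of -1.02 ± 0.36 SE (edgeR, unadjusted p = 0.0176). Without Control 4 its log2 fold change was -0.79 (edgeR, unadjusted p = 0.0505). Dnah3, at 17.2, 36.5, 40.1 and 108 CPM in Control and 13.4, 34.9, 10.0 and 18.3 CPM in TTI-101, depended more on Control 4, since its log2 fold change of -1.40 became -0.71 without it (edgeR, unadjusted p = 0.118).

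Dnah7a, Dnah7b and Dnah7c are related inner arm genes on chromosome 1. Taken pair by pair, 7.48% to 16.5% of the 100-base windows of a gene's transcripts recur in the other gene, so reads may be split among the 3. Their log2 fold changes were -1.18, -1.32 and -0.95, and in each of them 3 TTI-101 libraries lay below every Control library. Without Control 4 the values were -0.46, -0.60 and -0.48, with unadjusted p of 0.232, 0.145 and 0.175 in edgeR. Dnah14, a heavy chain placed in neither arm here, had 2 counts in Control 4 against 26 to 42 in the other Control libraries and 23 to 51 in TTI-101. Its log2 fold change was 0.42 ± 0.56 SE, and 0.06 without Control 4. It overlaps Lbr on the other strand, at 65.1 CPM on average, with the same reservation as for Dnah17.

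Intermediate and light chains were less spread than the heavy chains they bind. Dnaic1, an intermediate chain at the base of the outer arm, was at 11.9, 19.9, 18.4 and 25.1 CPM in Control and 8.74, 20.8, 9.78 and 9.67 CPM in TTI-101. Dnaic2, its partner, was at 23.1, 38.1, 40.9 and 61.3 CPM in Control and 19.9, 42.5, 23.3 and 18.6 CPM in TTI-101. Log2 fold changes were -0.62 ± 0.32 SE (edgeR, unadjusted p = 0.0783) and -0.65 ± 0.33 SE (edgeR, unadjusted p = 0.0755), the latter -0.38 without Control 4. In both genes TTI-101 2 lay inside the Control range and the other TTI-101 libraries were near or below Control 1. Dnal1, a light chain bound to an outer arm motor domain, was at 32.4, 42.6, 38.7 and 52.7 CPM in Control and 32.9, 35.2, 24.2 and 29.4 CPM in TTI-101, a log2 fold change of -0.45 (edgeR, unadjusted p = 0.0331) and -0.31 without Control 4 (edgeR, unadjusted p = 0.0966). Dnal4 was at 33.1, 38.6, 43.3 and 35.9 CPM in Control and 33.4, 45.0, 38.1 and 27.1 CPM in TTI-101, with a log2 fold change of -0.07 and overlapping groups.

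**Figure D2:**
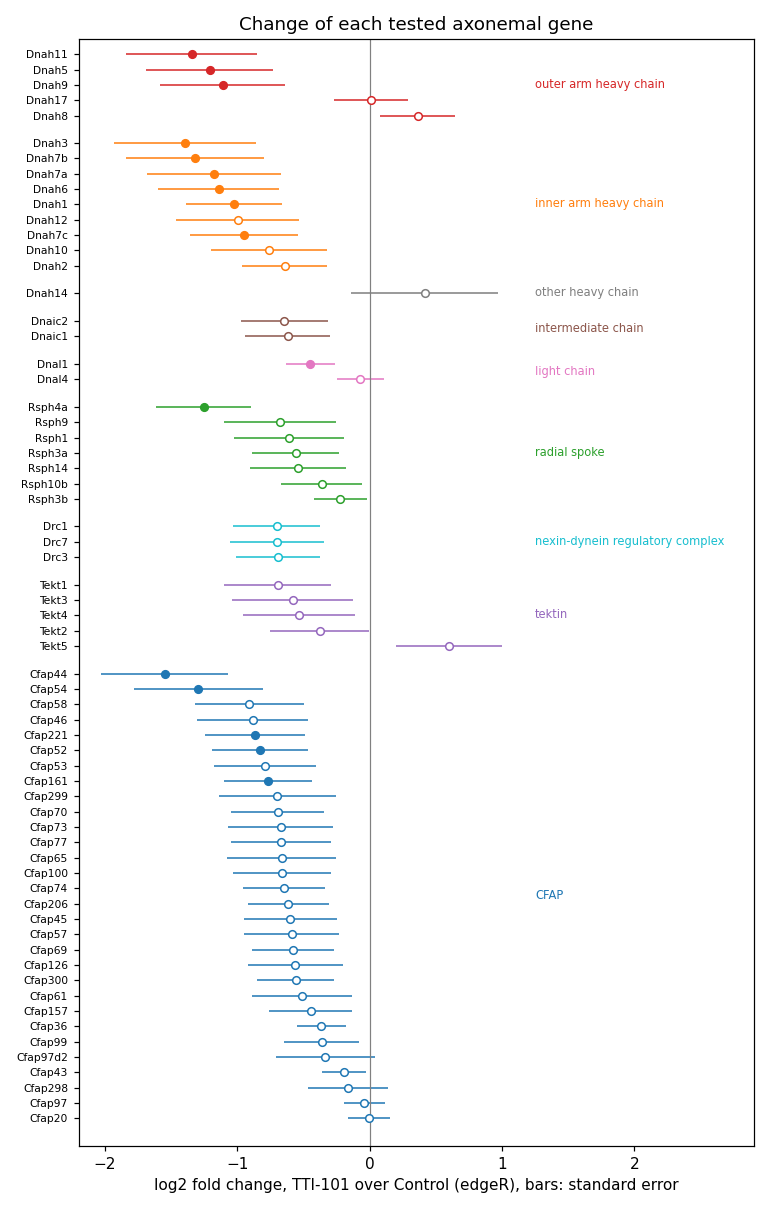
Log2 fold change of TTI-101 over Control for each of the 64 tested members, grouped by role, with the edgeR standard error as the bar and filled points for an unadjusted p under 0.05. The 16 filled points all lie below 0, 9 of them are heavy chains, and Tekt5, Dnah14, Dnah8 and Dnah17 are the members above 0.

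Radial spoke genes included the highest and the lowest level per length of all members. Rsph1, a spoke head protein, led with 34.5 CPM per kb averaged over both groups, followed by Cfap126 with 19.9, while Rsph6a had 1 count in all. In CPM, Rsph1 was at 22.6, 47.0, 55.6 and 69.2 in Control and 20.2, 61.9, 24.6 and 20.6 in TTI-101, with TTI-101 2 far above the other TTI-101 libraries and a log2 fold change of -0.61 ± 0.42 SE (-0.39 without Control 4). Rsph4a (ENSMUSG00000039552, GRCm38 chromosome 10, 33905111 to 33916021, plus strand), the spoke head protein of airway cilia and the paralog of the sperm gene Rsph6a, had the smallest p of all members. It was at 22.3, 38.0, 40.1 and 82.8 CPM in Control and 18.6, 26.3, 13.8 and 17.9 CPM in TTI-101. TTI-101 2 was below Control 2, 3 and 4 and above Control 1, and the other TTI-101 libraries were below every Control library. The fitted log2 fold change was -1.26 ± 0.36 SE (edgeR, unadjusted p = 0.00541) and -0.80 without Control 4 (edgeR, unadjusted p = 0.0108). The spoke stalk copies Rsph3a and Rsph3b share 44.7% and 46.1% of their 100-base windows, which makes the split of reads between them uncertain, and had log2 fold changes of -0.56 and -0.22, and -0.45 and -0.10 without Control 4.

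Drc1, Drc3 and Drc7 of the nexin-dynein regulatory complex were nearly alike, with log2 fold changes of -0.70, -0.69 and -0.70. Drc1, the scaffold of the complex, was at 20.8, 36, 45.7 and 54.8 CPM in Control and 18.6, 39.2, 20.6 and 18.1 CPM in TTI-101, so that TTI-101 2 lay inside the Control range and the other TTI-101 libraries below every Control library. The smallest p of the 3 was that of Drc3 (edgeR, unadjusted p = 0.0530), whose log2 fold change was -0.44 without Control 4.

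Tektins differed among themselves. Tekt1, the tektin with the highest level per length (15.3 CPM per kb), was at 15.6, 29.8, 28 and 49.4 CPM in Control and 14.2, 35.2, 14.7 and 11.6 CPM in TTI-101, a log2 fold change of -0.70 ± 0.40 SE (edgeR, unadjusted p = 0.113) and -0.37 without Control 4. Tekt5, a tektin of sperm, was at 3.67, 3.77, 3.16 and 1.34 CPM in Control and 4.52, 2.46, 7.17 and 4.01 CPM in TTI-101, the highest log2 fold change of the members at 0.60 ± 0.40 SE (edgeR, unadjusted p = 0.163), and 0.36 without Control 4. As in Dnah8, Control 4 and TTI-101 2 were the lowest libraries of their groups.

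All 30 tested CFAP genes had a log2 fold change below 0, with a median of -0.63. Of these, 5 were at an unadjusted p under 0.05 in edgeR, where 3.58% of all genes tested were lower. Cfap44 (ENSMUSG00000071550, GRCm38 chromosome 16, 44394796 to 44482428, plus strand), part of a tether that holds an inner arm to the microtubule, had the lowest log2 fold change of all members. Its level was 21.6, 50.6, 46.0 and 120.0 CPM in Control and 15.6, 31.4, 11.2 and 23.1 CPM in TTI-101. Control 4 held slightly more than the other Control libraries together, and TTI-101 1 and 3 lay below every Control library. The fitted log2 fold change was -1.55 ± 0.48 SE (edgeR, unadjusted p = 0.00850) and -0.95 without Control 4 (edgeR, unadjusted p = 0.0257). Cfap43, which joins Cfap44 in this tether, was at 76.9, 103, 112 and 113 CPM in Control and 76.0, 107, 80.9 and 91.0 CPM in TTI-101, a log2 fold change of -0.19 ± 0.17 SE. It overlaps Gsto1 on the other strand, at 160 CPM on average, so some of its counts could belong to Gsto1 if the counting ignored strand. Overlap was read from gene spans, and shared exons were not examined. Dnah2 and Dnah10, the motors of the inner arm that the tether holds, had log2 fold changes of -0.64 and -0.76, neither under an unadjusted p of 0.05 in edgeR. Cfap54, a protein of the central apparatus, was at 12.8, 20.7, 23.5 and 71.4 CPM in Control and 11.6, 20.2, 8.67 and 11.8 CPM in TTI-101. Its log2 fold change of -1.30 became -0.54 without Control 4 (edgeR, unadjusted p = 0.104).

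The remaining CFAP genes at that p were Cfap221, a central apparatus protein, Cfap52, a protein inside the microtubule wall, and Cfap161, with log2 fold changes of -0.87, -0.83 and -0.77. Without Control 4 these were -0.58, -0.41 and -0.61, none under that p. Cfap58, Cfap46 and Cfap53 lay about as low, at -0.91, -0.89 and -0.79, with unadjusted p of 0.0504, 0.0604 and 0.0663 in edgeR. Their values without Control 4 were -0.46, -0.69 and -0.41. Cfap126, Cfap45 and Cfap20 differed less. Cfap126, known as Flattop, was at 26.0, 38.6, 41.7 and 61.7 CPM in Control and 22.3, 51.1, 24.1 and 16.2 CPM in TTI-101, a log2 fold change of -0.56 (-0.32 without Control 4). Cfap45, a protein inside the microtubule wall, was at 17.6, 32.8, 35.4 and 44.9 CPM in Control and 14.9, 38.1, 18.3 and 14.9 CPM in TTI-101, a log2 fold change of -0.60. For Cfap20, an inner junction protein of the axoneme that also has a role in the nucleus, the values were 61.6, 57.6, 66.5 and 69.0 CPM in Control and 56.6, 80.5, 66.5 and 50.5 CPM in TTI-101. This small spread gave a log2 fold change of -0.004 ± 0.16 SE, and the groups overlapped throughout.

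**Figure D3:**
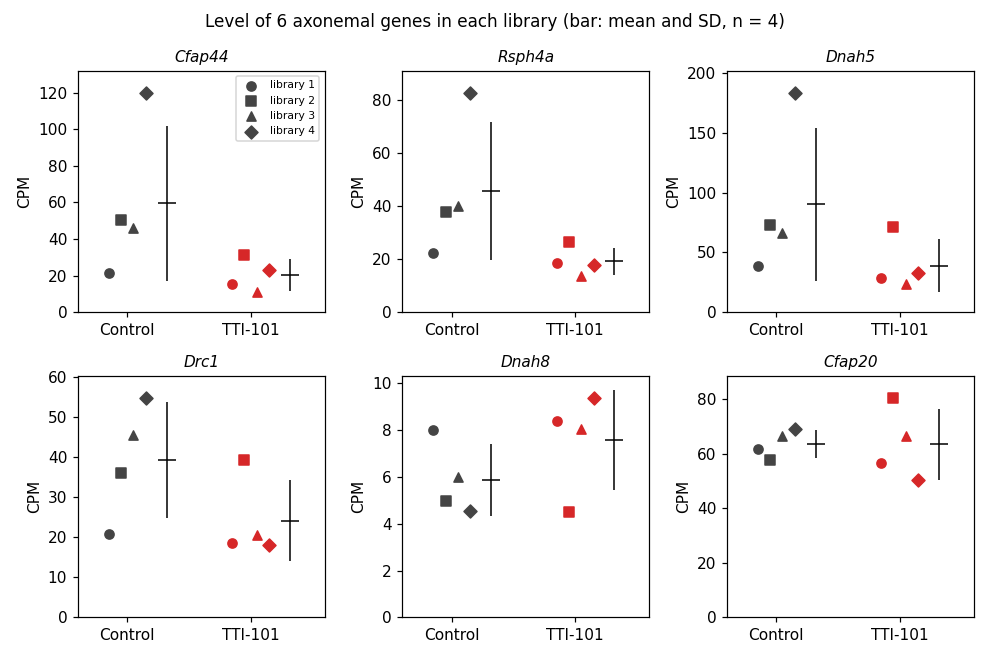
CPM of Cfap44, Rsph4a, Dnah5, Drc1, Dnah8 and Cfap20 in each library (linear axes from 0), with the mean and SD of each group beside the points (n = 4). Control 4, the diamond, is highest by far in Cfap44, Rsph4a and Dnah5, TTI-101 2, the square, is the highest TTI-101 library in all panels but that of Dnah8, and the groups overlap in all 6 genes.

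The log ratio of each member to the 12 ciliated cell markers, taken in the same library, showed which members kept step with the markers. Its SD over the 8 libraries had a median of 0.34 over the members and was under 0.25 in 23 of them. The smallest SDs were those of Dnaic2 (0.08), Drc1 (0.09) and Cfap45 (0.09), genes of the outer arm, the nexin link and the microtubule wall. The SD was over 0.5 in 10 members, the largest being 1.42 for Dnah14, 1.19 for Tekt5 and 1.00 for Dnah8. For Dnah8 and Tekt5 the log ratio was higher in TTI-101 than in Control by 0.93 and 1.18, with low levels behind both. The mean of the markers, which enters both, differed by -0.58.

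The inner arm heavy chains stood highest against the markers in Control 4. The mean log ratio of its 9 genes was -1.60, -1.33, -1.56 and -0.79 in Control 1 to 4 and -1.68, -1.62, -2.06 and -1.35 in TTI-101 1 to 4. The TTI-101 minus Control difference was -0.35, and -0.18 without Control 4. For the 5 outer arm heavy chains, airway and sperm-type genes together, it was 0.01 (0.05 without Control 4), a mean that pooled opposite signs. Over all libraries the airway genes Dnah5, Dnah9 and Dnah11 had -0.53, -0.43 and -0.49, and the sperm-type Dnah8 and Dnah17 had 0.93 and 0.57. These log ratios include the markers, whose mean differed by -0.58. The log2 fold changes of Dnah8 and Dnah17 themselves were 0.36 and 0.01. For all 15 heavy chains, Dnah14 included, the difference was -0.12 (-0.06 without Control 4). In the 49 members that are not heavy chains it was 0.005, and 0.002 without Control 4, again a mean that pooled opposite signs. Among them Cfap44 had -0.80, the lowest of all members, Rsph4a -0.55 and Cfap54 -0.46 over all libraries. Tekt5 had 1.18, Cfap20 0.56 and Cfap97 0.55. Of the 16 members at an unadjusted p under 0.05 in edgeR, 9 were among the 15 heavy chains and 7 among the 49 others. Of all genes tested, 3.58% were lower at that p.

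**Figure D4:**
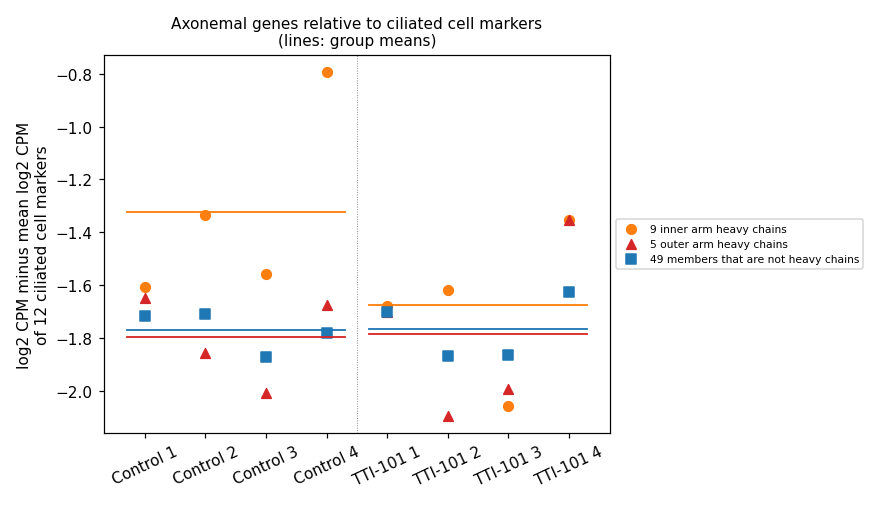
Log2 CPM minus the mean log2 CPM of 12 ciliated cell markers in each library, as the mean over 9 inner arm heavy chains, 5 outer arm heavy chains and the 49 members that are not heavy chains, with lines at the group means. The group means of the 49 members are -1.77 and -1.76, and the inner arm chains reach -0.79 in Control 4. The outer arm mean pools the airway genes Dnah5, Dnah9 and Dnah11 with the sperm-type Dnah8 and Dnah17. The mean of the 49 members also pools differences of both signs.

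In Control 4 the heavy chains spread widely. Relative to the mean of Control 1 to 3, their level there ran from 0.0806-fold for Dnah14 to 3.76-fold for Dnah11 over the 15 genes, with a median of 2.81-fold, and the median over the 49 other members was 1.63-fold. Further values are 3.10-fold for Dnah5, 2.48-fold for Rsph4a, 1.66-fold for Rsph1, 1.80-fold for Dnaic2, 0.668-fold for Dnah17, 0.719-fold for Dnah8 and 0.380-fold for Tekt5. Most heavy chains are long genes, so length was compared, in bins set after the values were seen. The 21 members of at least 8000 bases had a median log2 ratio of Control 4 to the other Control libraries of 1.34, and the 13 members under 2000 bases one of 0.76, but the bins between them, 2000 to 4000 and 4000 to 8000 bases, had medians of 0.70 and 0.56. Among genes that are not members, the medians from the shortest to the longest bin were -0.004, -0.09, -0.04 and 0.11. Median log2 fold changes from the shortest to the longest bin were -0.56, -0.65, -0.59 and -1.0. For the longest and the shortest members they were -0.54 and -0.33 without Control 4, and -0.92 and -0.56 after each library's trend on gene length was removed.

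**Figure D5:**
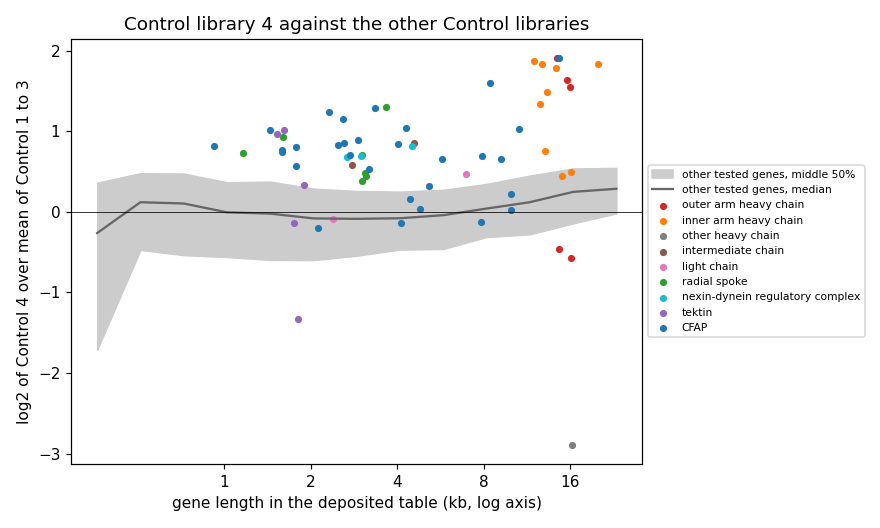
Log2 ratio of Control 4 to the mean of Control 1 to 3 against gene length (log axis) for the 64 tested members, coloured by role, over the median and the middle 50% of all other tested genes. Long members spread from high heavy chains, up to 3.76-fold for Dnah11, down to Dnah17, Dnah8 and Dnah14, while the median of other genes stays near 0 at all lengths.

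Axoneme and dynein genes outside the member rule gave a similar picture. Of 32 genes of docking, dynein assembly, the nexin-dynein regulatory complex, the central apparatus and the light chains, 30 were tested, 29 had a log2 fold change below 0, and 7 were lower at an unadjusted p under 0.05 in edgeR, with 0 higher. Their median was -0.56, and 3.58% of all genes tested were lower at that p. Without Control 4, 29 were below 0, 2 were lower at that p (1.2% of all genes) and the median was -0.39. Dynlrb2 of this set is also among the 12 ciliated cell markers, so the lists are not separate. The light chains Dynll1, Dynll2 and Dynlrb1 serve cytoplasmic dynein too. The central apparatus stood lowest, with 4 of 5 genes lower at that p and a median of -0.92 (1 of 5 and -0.42 without Control 4), and its Spag17 was at 6.57, 11, 10.0 and 41.3 CPM in Control and 4.71, 10.6, 4.67 and 7.66 CPM in TTI-101. Spag17 in Control 4 was 4.49-fold the mean of the other Control libraries. Docking and ruler genes had 2 of 7 lower and a median of -0.81 (1 of 7 and -0.46 without Control 4), the 7 tested dynein assembly genes 0 lower and a median of -0.39 (-0.22 without Control 4). In 6 cytoplasmic dynein genes, which serve transport within cells, the median was -0.03. The 1 gene lower at that p was Dync2h1, the motor of transport inside cilia, with a log2 fold change of -0.98. Its level in Control 4 was 2.95-fold the mean of the other Control libraries. Without Control 4 the median of the 6 was -0.04, with 1 gene lower at that p.

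Promoters were read because nearly all members shared 1 order of libraries. RFX factors, which act beside Foxj1 in ciliated cells, bind the X-box. GTTGCC, or its reverse complement GGCAAC, is 1 form of an arm of that motif, and other forms were not searched. RefSeq start sites on GRCm38.p6 were found for 55 of the 66 members. In the 300 bases from 250 before to 50 after a start, either of these spellings occurred in 20 of the 55 members (36.4%) and in 3821 of all 27025 genes with a promoter there (14.1%). TGTTTAC or GTAAACA, the core bound by forkhead factors such as Foxj1, occurred in 4 of the 55 (7.27%) and in 1095 of all genes (4.05%). Tested members with GTTGCC had a median log2 fold change of -0.68 (20 genes) and those without it one of -0.60 (33 genes). For TGTTTAC the medians were -0.10 with it (4 genes) and -0.65 without it (49 genes).

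The 100 bases before the start are shown, 5′ to 3′ on the strand of the gene and with GTTGCC and GGCAAC in capitals, for Cfap44 as the member with the lowest log2 fold change, for Dnaic2, Cfap45 and Drc1 as those with the smallest SD against the markers, for Tekt1 as the leading tektin, and for Dnah8 as a member that did not follow them. They lie at chr16:44394699-44394798 on the plus strand (Cfap44), chr11:114727319-114727418 on the plus strand (Dnaic2), chr1:172521030-172521129 on the plus strand (Cfap45), chr5:30281293-30281392 on the plus strand (Drc1), chr11:72361883-72361982 on the minus strand (Tekt1) and chr17:30626836-30626935 on the plus strand (Dnah8).
Cfap44: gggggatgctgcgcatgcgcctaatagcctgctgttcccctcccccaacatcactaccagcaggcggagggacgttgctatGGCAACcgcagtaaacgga
Dnaic2: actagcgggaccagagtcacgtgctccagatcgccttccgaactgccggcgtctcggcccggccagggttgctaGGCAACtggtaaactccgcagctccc
Cfap45: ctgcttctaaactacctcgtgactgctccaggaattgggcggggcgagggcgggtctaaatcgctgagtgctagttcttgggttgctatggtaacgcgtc
Drc1: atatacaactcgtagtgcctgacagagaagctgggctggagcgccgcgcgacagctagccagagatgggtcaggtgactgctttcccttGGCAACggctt
Tekt1: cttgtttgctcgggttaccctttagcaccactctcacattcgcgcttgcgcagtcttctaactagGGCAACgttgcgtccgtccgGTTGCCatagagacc
Dnah8: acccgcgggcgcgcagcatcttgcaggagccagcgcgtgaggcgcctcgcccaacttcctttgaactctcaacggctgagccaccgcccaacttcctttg
Cfap44, Dnaic2, Drc1 and Tekt1 hold the letters here, and Tekt1 has a second RefSeq start whose window holds neither spelling. Neither is in the window of Cfap45 or Dnah8, as in 35 of the 55 members, which says only that these exact letters are not there. Other forms of the X-box may be present in these windows.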

How the data were processed

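Whole-lung poly(A) RNA of 4 Control and 4 TTI-101 samples was sequenced with a strand-marking kit. The authors deposited whole-number counts per Ensembl gene with no normalization, and the gene coordinates are those of GRCm38. The submitters' processing notes name STAR, DESeq2 and mm10, without versions. The counting tool and its strand setting are not given in the sources used here. Samples were grouped by their titles. Members and gene lists were chosen with earlier results of these data known.

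Counts were analysed in R 4.3.3. In edgeR 4.0.16, filterByExpr (minimum count 10) left 17138 genes. TMM scaled the libraries, and groups were compared by robust quasi-likelihood F-tests with Benjamini-Hochberg adjustment over all of these genes. Standard errors are the log2 fold change divided by the square root of F. Log2 CPM used a prior count of 2. Members were named by rule, beginning with those of the highest level per length and the smallest p in each role. To these came the 5 lowest and 5 highest log2 fold changes and the 3 smallest and 3 largest SDs of the log ratio. Any p under 0.01, copies that share sequence and outer arm disease genes were also named. Members, promoters and genes outside this rule that are named with values were chosen after these were seen. Shared 100-base windows were counted in GENCODE M21 transcripts, and promoters came from RefSeq.

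Alternatives were DESeq2 size factors, library totals, no filter, 10 counts in 4 libraries, DESeq2 1.42.0, limma-voom (limma 3.58.1), a block for the replicate number, a prior count of 0.5, each library left out, and, added after seeing the data, a trend on gene length (lowess span 0.3). The same-numbered libraries deviated together with correlations of 0.393, 0.0822, 0.158 and 0.0707, so the numbers were not taken to pair the samples. The plain edgeR, DESeq2 and limma-voom fits were tested on simulated data.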

Additional observations from a re-analysis of the deposited data

Results flagged for a closer look

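A library far from the other 3 of its group was looked for in 68 groups of 4 by the gap to the nearest library divided by the range, set against Dixon's critical value. Chance alone exceeds it in about 1 in 20 groups, or 3.4 of 68, and 15 exceeded it, although the members share libraries and are not independent. TTI-101 2 stood far above the other TTI-101 libraries in Cfap45 (0.854), Dnah6 (0.871), Dnah7a (0.895), Dnah7c (0.858), Dnah9 (0.848), Dnaic1 (0.913), Drc1 (0.884), Rsph1 (0.894), Tekt1 (0.870) and the mean log2 CPM of the members (0.960). Control 4 stood apart from the other Control libraries by its low Dnah14 (0.920), its high Dnah7a (0.850) and its share of mitochondrial counts (0.867). Control 3 had the lowest mean of members minus ciliated cell markers in its group (0.884). Control 1 had the largest total count (0.830).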

How the results depend on the processing

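The members lower at an unadjusted p under 0.05 numbered 16 in edgeR (3.58% of all genes) and 10 with no filter on low counts (2.96%). They numbered 9 in limma-voom (2.85%), 23 in DESeq2 (2.69%) and 15 with the trend on gene length removed (3.94%). When 1 library was left out, they numbered from 2 to 49 (1.2% to 8.1%). The block for the replicate number gave 19 (3.59% of all genes), with a median log2 fold change of -0.65. The labels give the same-numbered libraries a number and the last digit of the library name in common. The letters of these names differ between the groups, and their meaning is not given. Control 1 and TTI-101 1 were the deepest of their groups, at 26873509 and 25920509 counts. Their correlation of 0.393 was the highest of any Control and TTI-101 pair, and a batch by number was not tested. No member passed an adjusted p of 0.05 under these alternatives. The median log2 fold change ranged from -1.02 to -0.41 over the libraries left out. No log2 fold change of a named member that was past the threshold turned its direction, and the causes of the lost calls were not tested. With 4 libraries a group, a depth of at least 16075855 counts and an SD near 0.50 on the log2 scale in both groups, the spread between libraries limits these comparisons. Rsph6a and Cfap97d1 were too low to compare.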
